A study of Mus musculus with 35 samples.

Results

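Open regions that carried both H3K4me3 and H3K27me3 were described in mouse embryonic fibroblasts on day 4 of chemical reprogramming. They were the regions of the merged ATAC-seq table on chromosomes 1 to 19 that shared at least 1 bp with a region of the H3K4me3 table and at least 1 bp with a region of the H3K27me3 table. This left 1510 bivalent open regions among 35931, or 4.20%. A further 9581 regions overlapped H3K4me3 only, 1862 overlapped H3K27me3 only and 22978 overlapped neither mark. No measured value of a region entered the choice, apart from its place in the 3 tables.

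Trimethylation of lysine 4 on histone H3 marks active or poised promoters, and trimethylation of lysine 27, laid down by Polycomb repressive complex 2, marks repressed chromatin. Promoters that carry both marks are known as bivalent. They were first described in embryonic stem cells, where many belong to developmental regulators that are silent but can be switched on. In a culture the 2 marks at one site can also come from different cells or different alleles, which the tables cannot tell apart.

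The fibroblasts came from embryos of ICR mice. C stands for CHIR99021, a GSK3 inhibitor, 6 for RepSox, an ALK5 inhibitor, and F for Forskolin, which raises cAMP. A stands for AM580, a retinoic acid receptor agonist, and E for EPZ004777, a DOT1L inhibitor. C6FAE combines all of them. CHIR99021 is missing from 6FAE, RepSox from CFAE and Forskolin from C6AE. AE holds the last 2 chemicals alone. Basal and Control complete the set, and the sources used here do not define the Basal treatment for these assays. ATAC-seq, which marks DNA that a transposase can reach, was measured in 7 treatments with 2 libraries each, from 50000 cells per reaction and 13 cycles of PCR. ChIP-seq of each mark was measured in 6 treatments with 1 library each. For the marks, the libraries with a control title are labelled C6FAE. They entered no comparison, so neither mark has a control group here. The study describes the Control and C6FAE libraries as biological replicates. For the other treatments nothing says that the libraries came from separate cultures, so the spread between them may be technical.

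The ATAC-seq libraries held 3346418 to 8764791 tags. The H3K4me3 libraries held 745089 (C6AE) to 7103488 tags (Basal), and the H3K27me3 libraries 633980 (6FAE) to 6392309 tags (C6AE), so 1 library of each mark was shallow. At a -log10 q of at least 1.3, called enriched here, the H3K27me3 lists held 74 peaks in 6FAE, 82 in C6FAE and 136 in CFAE, and 4115 to 17766 peaks in AE, Basal and C6AE. The comparisons of mark levels are also given without these shallow libraries, whereas counts of regions and ranks are not. Signal is given in RPKM, reads per kilobase scaled to the number of mapped reads. The ATAC-seq RPKM columns are merged over the libraries of a treatment, so they carry no replicate error and no test.

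The bivalent regions were long. Their median length was 2455 bp, with quartiles of 1538 and 3876 bp, against 2951 bp for regions with H3K4me3 only, 1022 bp with H3K27me3 only and 1093 bp with neither mark. They lay on every chromosome of the set, and their share of the open regions ran from 2.67% on chromosome 16 to 5.44% on chromosome 11. Chromosomes 11, 2 and 7 held the most, at 139, 135 and 124 regions.

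The H3K27me3 regions under them were wide. The 1462 H3K27me3 regions that held a bivalent open region, 7.96% of 18363, had a median length of 8271 bp, against 2094 bp for all H3K27me3 regions and 1657 bp for those with no open region. Of these, 1379 held 1 bivalent open region, 75 held 2 and 8 held 3 or 4. The H3K4me3 regions that held one numbered 1497 of 12183 (12.3%). H3K27me3 covered a whole bivalent open region in 723 cases (47.9%), at least 50% of it but not all in 209 cases and less than 50% in 578 cases. H3K4me3 covered the whole region in 619 cases (41.0%), and both marks did so in 337 cases. In 1394 regions the 2 marks shared bases inside the open region, whereas in 116 regions they lay side by side without sharing any.

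The regions were chosen through tables made from these same libraries, so the peaks of single libraries are given as a description. An enriched H3K4me3 peak lay in 95.8 to 99.5% of the bivalent regions in each of the 6 libraries, and in all 6 libraries in 1393 regions (92.3%). For comparison, it lay in 98.2 to 99.8% of the H3K4me3 only regions. At least 1 of the 6 libraries listed an enriched H3K27me3 peak in 1254 regions (83.0%), and 256 regions (17.0%) overlapped the merged H3K27me3 table without an enriched peak in any of them. The strictest set, enriched for H3K27me3 in AE, Basal and C6AE together and for H3K4me3 in all 6 libraries, held 502 regions (33.2%).

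In all 7 treatments the bivalent regions had a median accessibility under that of regions with H3K4me3 only and above that of the other classes. In Control their median was 12.1 RPKM, with quartiles of 9.11 and 15.6 RPKM, against 17.2 RPKM with H3K4me3 only, 8.98 with H3K27me3 only and 9.41 with neither mark. Among the other treatments, C6AE and Basal had bivalent medians of 14.1 and 14.4 RPKM. The median was 16.3 RPKM in 6FAE and 17.1 RPKM in AE, and CFAE and C6FAE reached 20.7 and 21.3 RPKM. Control was the lowest of the 7 and C6FAE the highest, and the quartile ranges of Control and C6FAE did not overlap. The medians of C6AE and Basal lay close together against the width of their quartile ranges, as did those of CFAE and C6FAE. In bulk cultures, more cells with an open region and more open DNA per cell cannot be told apart.

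**Figure D1:**
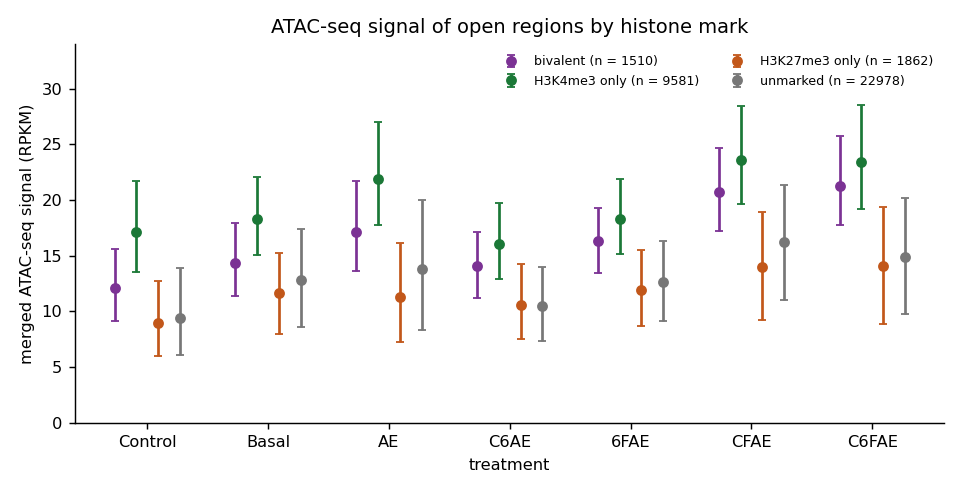
Merged ATAC-seq RPKM of open regions in each treatment, for the 4 classes of histone mark. Points are medians and bars run from the lower to the upper quartile over regions, which are not replicates. Bivalent regions lie under the H3K4me3 only regions and above the other classes in all 7 treatments, with the highest median in C6FAE (21.3 RPKM).

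Seen region by region, C6FAE was the most accessible treatment for 658 of the 1510 bivalent regions (43.6%), against 27.6% of all open regions. CFAE was the most accessible for a further 492 (32.6%, against 28.0%). The lowest treatment was Control for 712 regions (47.2%, against 33.4%) and C6AE for 380 regions (25.2%, against 28.4%). The treatments with both CHIR99021 and Forskolin thus held the maximum for most bivalent regions, and for most of all open regions too, a count without a test. The columns were not centred for these ranks.

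Each treatment was next set against Control on the scale of log2(RPKM + 1). The 6 comparisons have 1 Control column in common, and a low value there raises all of them. In C6FAE, 1419 of the 1510 bivalent regions (94.0%) were above Control, the median difference was 0.73, and 457 regions (30.3%) were at least 2-fold higher. Over all open regions 25.1% were at least 2-fold higher. Only 1 bivalent region (0.0662%) was at least 2-fold lower, against 4.45% of all open regions. In CFAE the median difference was 0.70, with 419 regions at least 2-fold higher (27.7%, against 26.8% of all) and none lower (against 3.47%).

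The other 4 treatments were closer to Control. The median difference was 0.44 in AE, 0.37 in 6FAE, 0.22 in Basal and 0.18 in C6AE. The bivalent regions at least 2-fold higher numbered 208 in AE (13.8%, against 18.7% of all open regions), 162 in 6FAE (10.7%, against 15.2%), 93 in Basal (6.16%, against 14.2%) and 104 in C6AE (6.89%, against 10.9%). Those at least 2-fold lower numbered 6 in AE (against 4.48% of all open regions), 4 in 6FAE (against 4.31%), 12 in Basal (against 3.63%) and 24 in C6AE (against 7.55%). In these treatments the share past 2-fold was thus under that of all open regions, and in C6FAE and CFAE it was above it on the RPKM as deposited.

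Part of each difference was shared by all open regions. Over all open regions the median was 0.50 in C6FAE, 0.56 in CFAE and 0.39 in AE. It was 0.24 in 6FAE, 0.23 in Basal and 0.032 in C6AE. Relative to it, the bivalent median was higher by 0.23 in C6FAE, by 0.15 in C6AE, by 0.15 in CFAE, by 0.13 in 6FAE and by 0.05 in AE, and differed by -0.02 in Basal. With each column centred on its median, 114 bivalent regions (7.55%) were at least 2-fold higher in C6FAE and 18 at least 2-fold lower (86.4% higher, in place of 99.8%). Over all open regions 10.3% were then at least 2-fold higher, so the bivalent share was under that of all open regions, the reverse of the uncentred columns. After quantile normalization the shares were 6.23 and 9.42%. In the lower direction the centred columns gave 4030 of all open regions, against 3712 higher. After quantile normalization 94 bivalent regions were higher and 6 lower, against 3386 and 3348 of all open regions. Under both scalings the bivalent regions past 2-fold were thus mostly higher, whereas all open regions were split nearly evenly. The bivalent median remained above that of all open regions in C6FAE under both scalings, by 0.23 and 0.21.

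The bivalent regions differed more from Control than the H3K4me3 only regions, whose median difference in C6FAE was 0.43, with 775 of 9581 (8.09%) at least 2-fold higher. The regions with H3K27me3 only had a median of 0.52 (28.1% at least 2-fold higher) and those with neither mark 0.55 (31.6%). These classes differ in length and level, so the comparison was repeated among open regions of 2000 to 4000 bp with a Basal RPKM of 10 to 20, a choice made after the data had been seen. There the medians were 0.75 for 410 bivalent regions, 0.45 for 2731 with H3K4me3 only, 0.62 for 195 with H3K27me3 only and 0.54 for 2617 with neither mark. The shares at least 2-fold higher were 29.3%, 7.65%, 23.6% and 24.95% in the same order. In CFAE the matched medians were 0.72, 0.45, 0.60 and 0.67, so the bivalent and the unmarked regions lay close together there. The matched share past 2-fold was 24.4% for bivalent and 29.4% for unmarked regions in CFAE, and was lower for bivalent regions in every treatment but C6FAE. Unmarked medians were above bivalent ones in AE (0.53 against 0.46) and Basal (0.38 against 0.21). They were under them in 6FAE (0.325 against 0.329) and C6AE (0.094 against 0.15).

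**Figure D2:**
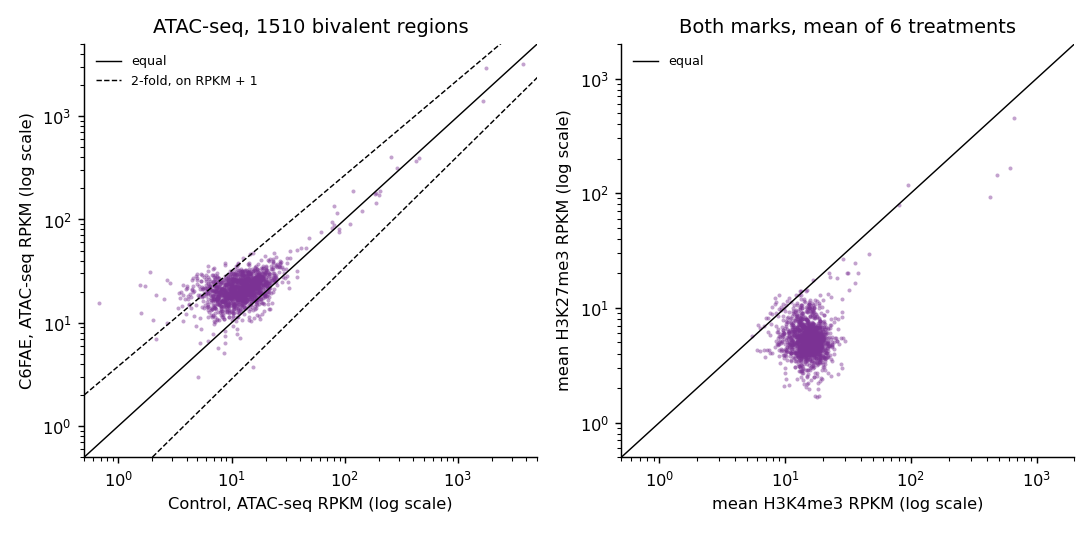
Left, merged ATAC-seq RPKM of the 1510 bivalent regions in Control (x) and C6FAE (y), each point a region, both axes on a log scale. The full line is equality and the broken lines a 2-fold difference of RPKM + 1: 457 regions lie above the upper and 1 below the lower broken line. Right, mean H3K4me3 (x) and H3K27me3 (y) RPKM over 6 treatments on log scales. A few regions lie far above the rest in both panels.

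How much of a bivalent region lay in H3K27me3 went with the size of its difference. The 723 regions wholly inside H3K27me3 had a median of 10.2 RPKM in Control and 20.5 RPKM in C6FAE, a median difference of 0.91, and 310 of them (42.9%) were at least 2-fold higher. The 209 regions covered to at least 50% but not wholly had medians of 12.3 and 20.8 RPKM and a difference of 0.71 (24.9% at least 2-fold higher). The 578 regions covered to less than 50% had medians of 14.1 and 22.2 RPKM and a difference of 0.58 (16.4%). The 3 groups thus differed in Control and reached nearly the same level in C6FAE. They differed in length too, with medians of 1754, 2909 and 3342.5 bp. Among regions of 2000 to 4000 bp with a Basal RPKM of 10 to 20, the difference was 0.89 for 170 wholly covered regions and 0.59 for 173 regions covered to less than 50%, so the gap of 0.32 was 0.30 there.

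The same order of the 3 groups was seen in each of the other treatments. In CFAE the medians were 0.88, 0.64 and 0.55, in 6FAE 0.49, 0.39 and 0.22, and in C6AE 0.33, 0.22 and 0.037. The groups were closest in AE, at 0.48, 0.43 and 0.41, and in Basal, at 0.25, 0.22 and 0.17. Since Control enters all of these, its level in the wholly covered regions is part of every value. The regions enriched for H3K27me3 in AE, Basal and C6AE numbered 557, with a median difference of 0.82 in C6FAE and 205 regions (36.8%) at least 2-fold higher. The 256 regions with no enriched H3K27me3 peak in any library had a median of 0.68 and 64 regions (25%) past 2-fold.

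**Figure D3:**
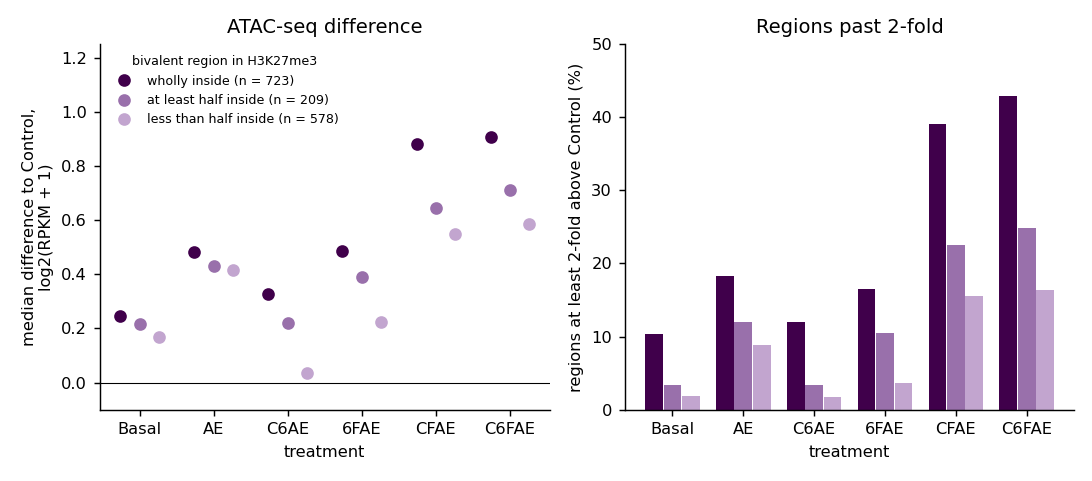
Median difference to Control of log2(RPKM + 1) in ATAC-seq (left) and percentage of regions at least 2-fold above Control (right), for bivalent regions wholly, to at least 50% or to less than 50% inside an H3K27me3 region. In C6FAE the medians are 0.91, 0.71 and 0.58, and the percentages 42.9, 24.9 and 16.4%. All comparisons share the Control column.

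Libraries could be compared through their peak lists. For each library the 20000 peaks with the highest -log10 p were kept, called high-scoring here, and a region counted when it overlapped one. In Control, 33.5 and 27.9% of the bivalent regions had a high-scoring peak in the 2 libraries, and in C6FAE 65.2 and 48.3%, so the libraries of the 2 treatments did not overlap. The same held in each other class: the shares in C6FAE and Control were 83.2 and 69.4% against 62.0 and 55.0% with H3K4me3 only, 25.99 and 15.7% against 13.3 and 10.2% with H3K27me3 only and 33.1 and 21.6% against 17.0 and 11.6% with neither mark. CFAE came next, with 49.01 and 57.3%. The libraries of 6FAE had 27.4 and 54.7%, those of AE 45.03 and 35.4%, those of Basal 37.4 and 43.4% and those of C6AE 40 and 27.9%. The 6FAE libraries, with 4960248 and 8764791 tags, stood furthest apart, and their range covered that of every other treatment but C6FAE and CFAE. The C6FAE libraries held 7800792 and 5215704 tags, and both were deeper than the Control libraries (3800049 and 4798705). The part of depth in the shares was not tested. The smallest two-sided p of an exact permutation test of 2 libraries against 2 is 0.33.

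Within every library, bivalent regions had a high-scoring peak less often than H3K4me3 only regions. The mean shares were 42.3 and 66.4%, a difference of -24.1 ± 3.79 percentage points (SD, n = 14 libraries), lower in 14 of 14 libraries. They had one more often than the H3K27me3 only regions, by 25.6 ± 7.68 points, and than the unmarked regions, by 19.2 ± 5.72 points, each in 14 of 14 libraries. In an exact two-sided sign permutation test over the libraries each of the 3 comparisons gave p = 0.00012, adjusted p = 0.00012 (Benjamini-Hochberg over 3), the smallest p that 14 libraries can give. With the mean of a treatment as the unit (n = 7), the exact p was 0.016 for each. The same regions were scored in every library, so these p-values measure agreement among libraries and no spread over regions. Length enters these shares. Among regions of 1000 to 2000 bp the differences were -19.5, 8.65 and 1.35 points, and the last, to the unmarked regions, no longer passed (exact adjusted p = 0.43).

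**Figure D4:**
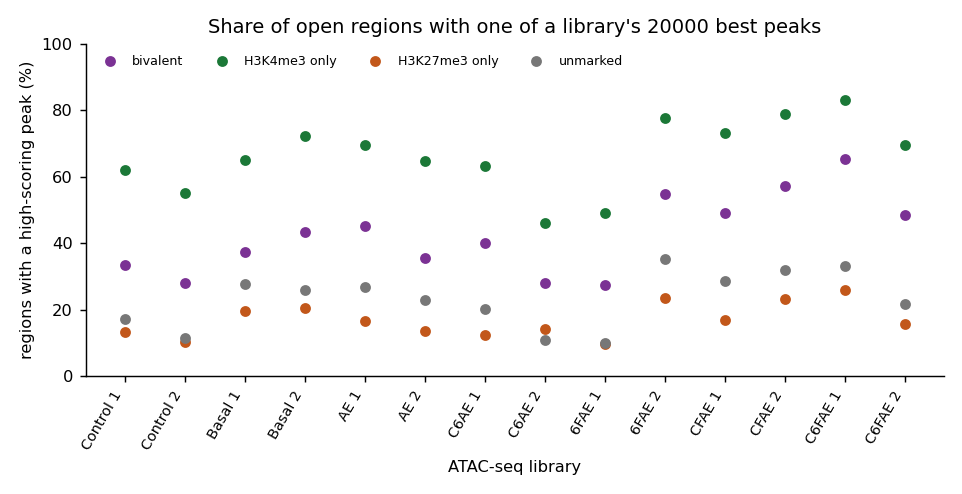
Percentage of open regions of each class that overlap one of the 20000 highest-scoring ATAC-seq peaks of a library, for the 14 libraries, 2 per treatment. Bivalent regions lie under the H3K4me3 only regions in all 14 libraries. They reach 65.2 and 48.3% in C6FAE and 33.5 and 27.9% in Control.

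The gap to the H3K4me3 only regions was narrower in some libraries than in others. In Control the bivalent share was 54.0 and 50.8% of the H3K4me3 only share, and in C6FAE it was 78.4 and 69.6%. The libraries of CFAE stood at 66.9 and 72.5%, those of 6FAE at 56.0 and 70.4% and those of AE at 64.6 and 54.6%. Those of Basal stood at 57.5 and 60.01%, and those of C6AE at 63.3 and 60.5%. Both C6FAE libraries thus lay above both Control libraries, but so did every library of the other treatments, and this was not particular to C6FAE.

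Both C6FAE libraries and neither Control library had a high-scoring peak in 187 bivalent regions (12.4%, against 8.11% of all open regions). The reverse held in 8 bivalent regions (0.530%, against 1.13%). The counts were 82 and 13 with the 10000 best peaks of each library in place of 20000, a choice made after seeing the data. With 40000 they were 263 and 6. Shares of all open regions were not computed at these settings. Both C6FAE libraries were deeper than both Control libraries, and the part of depth in these counts was not tested. Leaving out 1 chemical gave smaller numbers. A high-scoring peak in both C6FAE libraries was absent from both C6AE libraries in 146 bivalent regions (9.67%, against 6.48% of all), from both 6FAE libraries in 82 regions (5.43%, against 3.25%) and from both CFAE libraries in 43 regions (2.85%, against 2.17%). The reverse counts were 15 (0.993%, against 0.582%), 16 (1.06%, against 0.868%) and 35 (2.32%, against 2.64%). Of the 3 comparisons that leave out 1 chemical, C6FAE and CFAE differed in the fewest bivalent regions. Against AE the counts were 119 (7.88%, against 5.29% of all) and 16 in reverse (1.06%, against 3.04%). AE and Basal each had a high-scoring peak in both libraries and neither Control library in 70 bivalent regions (4.64%, against 5.52 and 5.42% of all), and in each case the reverse held in 14 (0.927%, against 1.2 and 0.971%). All 14 libraries had a high-scoring peak in 115 bivalent regions (7.62%, against 5.58% of all and 18.4% with H3K4me3 only), and no library had one in 42 (2.78%).

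A limma fit over the peak density of single libraries was made across 35877 regions, with all 1510 bivalent regions tested. Peak density is the mean pileup of the listed peaks over a region, scaled to the tags of the library. No bivalent region had a Benjamini-Hochberg adjusted p under 0.05 in C6FAE against Control (1 region, 0.00279%, was called higher among all regions tested and 2, 0.00557%, lower). At an unadjusted p under 0.05, 280 bivalent regions were higher (18.5%, against 12.7% of all) and 4 lower (0.265%, against 2%). Without C6FAE replicate 1 the 280 became 104, and after quantile normalization limma gave 87 higher and 14 lower. The smallest adjusted p of a bivalent region was 0.11. In C6FAE against C6AE, 6FAE and CFAE, AE against Control and Basal against Control, limma called 0 bivalent regions too. At an unadjusted p under 0.05, limma gave 146 bivalent regions higher against C6AE (9.67%, against 9.43% of all regions tested) and 6 lower (0.397%, against 1.31%). Against 6FAE it gave 49 higher (3.25%, against 4.33%) and 1 lower (0.0662%, against 0.92%). Against CFAE it gave 14 higher (0.927%, against 1.51%) and 11 lower (0.728%, against 2.07%). The 146 against C6AE were 307 without C6AE replicate 1, 38 without C6AE replicate 2, 57 without C6FAE replicate 1 and 38 after quantile normalization. For these alternatives, and those of the 280, the share over all regions was not computed. AE against Control had 138 higher (9.14%, against 9.68%) and 6 lower (0.397%, against 1.26%). Basal against Control had 38 higher (2.52%, against 3.86%) and 31 lower (2.05%, against 2.96%). Apart from C6FAE against Control, the bivalent share higher was thus close to or under that of all regions. Background shares at an adjusted p under 0.05 were between 0 and 0.00836% in these comparisons. On simulated data for C6FAE against Control, with folds on the log2 scale of the fit, it recovered 88 of 100 regions changed 4-fold. It recovered 100 of 100 changed 16-fold, with 7 false calls in all. Real differences were smaller on this scale than in RPKM. In C6FAE against Control the bivalent median was 0.33 in the fit and 0.73 in log2(RPKM + 1). Whether the fit would find a 4-fold difference in RPKM was thus not tested, and the absence of calls does not show that no bivalent region differed.

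With the highest fold enrichment of a peak in place of the density, limma called 1 bivalent region in C6FAE against Control, among 80 called higher of 35877 tested. It is named after its values were seen. The region is chr14:61664462-61666598, with a fold enrichment of 6.46 and 6.89 in the C6FAE libraries and 2.87 and 2.38 in the Control libraries (log2 difference 1.35, SE 0.32, limma adjusted p = 0.047). Its ATAC-seq level was 14.5 RPKM in Control, 15.5 in Basal, 20.3 in AE, 21.8 in C6AE, 29.5 in 6FAE, 39.0 in CFAE and 46.7 in C6FAE. In these merged columns the 3 treatments with Forskolin were above the 4 without it, but the single libraries were not so ordered. The fold enrichment was 2.30 and 6.37 in the 6FAE libraries, and the first of these was the lowest of all 14.

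Positions are given in mm9, the build named in the submitters' processing notes. No annotation of that build was used here, so no region is assigned to a gene. The 5 largest positive differences between C6FAE and Control, among bivalent regions with a listed peak in both C6FAE libraries, all lay wholly inside H3K27me3 and had no listed peak in either Control library. The first was chr12:99812368-99813343, at 1.89 RPKM in Control and 30.9 in C6FAE, a log2 difference of 3.46. The other treatments were at 10.3 (AE), 12.2 (Basal), 16.5 (6FAE), 25.7 (CFAE) and 26.3 RPKM (C6AE), so every treatment was above Control. Its peak densities were 0.57 and 0.615 in the C6FAE libraries and 0 in both Control libraries (limma log2 difference 1.13, SE 0.26, adjusted p = 0.11).

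The next was chr5:38212007-38212902, at 0.676 RPKM in Control, 15.6 in C6FAE, 14.6 in 6FAE, 10.9 in C6AE, 8.53 in Basal, 7.05 in CFAE and 5.38 in AE, with a log2 difference of 3.31 from Control to C6FAE. The third was chr16:17914550-17915665, at 1.56 RPKM in Control and between 9.38 (Basal) and 23.7 RPKM (C6AE) elsewhere, with 23.4 RPKM in C6FAE (log2 difference 3.25). The fourth, chr5:37637063-37638312, was highest in C6FAE, with 22.4 RPKM against 1.72 in Control and 6.70 to 8.92 RPKM in the other treatments (log2 difference 3.105). Its C6FAE libraries differed, with peak densities of 0.63 and 0.188, and the second was under both 6FAE libraries (0.221 and 0.364). The fifth, chr6:54378839-54380115, was at 2.70 RPKM in Control, 8.76 in C6AE and 16.8 to 26.2 RPKM in the others (log2 difference 2.88). None of the 5 passed limma (adjusted p of 0.11 to 0.33), and each difference had a low Control value as its base.

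The negative differences were smaller on the RPKM as deposited. Where both Control libraries listed a peak, the largest was chr3:96278846-96279421, at 11.9 RPKM in Control and 7.04 in C6FAE (log2 difference -0.68). CFAE stood at 11.9 RPKM there too. The next 4 had differences of -0.65, -0.64, -0.60 and -0.56, and limma adjusted p-values of the 5 were 0.47 to 0.88. With the columns centred on their median the 5 differences were -1.25 to -1.13, all past 2-fold, and after quantile normalization they were -1.17 to -0.98. The only bivalent region at least 2-fold lower in C6FAE, named after its values were seen, had a listed peak in just 1 Control library. It is chr11:12363693-12364368, at 15.4 RPKM in Control, 3.75 in C6FAE and 5.11 to 9.56 RPKM in the other treatments (log2 difference -1.79).

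H3K27me3 regions that held several bivalent open regions were described next. Of these, 3 held 4 and 5 held 3. In chr11:96106472-96174772, the 4 open regions were at 12.0, 12.9, 5.55 and 12.3 RPKM in Control, from the first to the last position, and at 31.4, 18.6, 16.3 and 31.6 RPKM in C6FAE. All 4 were above Control and 3 were at least 2-fold higher. H3K27me3 over the whole region was 13.3 RPKM in 6FAE, 12.0 in Basal, 9.69 in AE, 5.31 in CFAE, 4.69 in C6AE and 3.27 in C6FAE.

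In chr2:74479445-74611690, the 4 open regions were at 9.55, 9.51, 10.4 and 5.23 RPKM in Control and at 21.5, 12.6, 17.2 and 11.1 RPKM in C6FAE. All 4 were again above Control, 1 of them by at least 2-fold. H3K27me3 was 16.1 RPKM in 6FAE, 15.2 in Basal, 12.7 in AE, 6.88 in CFAE, 6.84 in C6AE and 5.71 in C6FAE. In both regions C6AE was nearer to C6FAE than to AE and Basal, and the 6FAE library, the shallowest of the mark, was the highest.

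The third region with 4 was chr9:2999914-3038375. Its open regions were at 142 to 204 RPKM in Control and 121 to 187 RPKM in C6FAE, with differences of -0.36 to -0.05, so all 4 were under Control. H3K27me3 was 28.3 RPKM in C6FAE, 25.4 in AE, 22.6 in CFAE, 19.6 in 6FAE, 17.0 in Basal and 9.30 in C6AE. In contrast to the 2 regions above, C6FAE was thus the highest there. Of the 5 H3K27me3 regions with 3 bivalent open regions, the first 2 in order of chromosome name are given. In chr16:17911734-17921372, which holds the third of the positive differences above, H3K27me3 was 15.3 RPKM in AE, 17.7 in Basal, 12.6 in 6FAE, 9.60 in C6AE, 6.90 in CFAE and 3.68 in C6FAE. In chr19:46190073-46226595 the 3 open regions were above Control in C6FAE by 0.43 to 0.74, and H3K27me3 was 10.6 RPKM in Basal and 3.39 RPKM in C6FAE.

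H3K4me3 at the bivalent regions was lower than at the H3K4me3 only regions in 5 of 6 treatments. The medians were 8.63 RPKM against 12.0 in 6FAE, 16.3 against 19.8 in AE, 14.4 against 18.9 in Basal, 10.8 against 12.0 in C6FAE and 14.3 against 16.5 in CFAE. In C6AE, whose library held 745089 tags, it was higher, at 27.5 against 24.4 RPKM. The mean difference of the median log2(RPKM + 1) was -0.20 ± 0.21 (SD, n = 6 treatments). It did not pass an exact two-sided sign permutation test (p = 0.094, adjusted p = 0.19 over 2 marks), where 6 treatments cannot give a p under 0.031. Without C6AE it was -0.28 (exact p = 0.062, the smallest that 5 treatments can give), and with H3K4me3 regions of 1000 to 2000 bp alone it was -0.08 (exact p = 0.41).

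H3K27me3 at the bivalent regions stood close to its level at the H3K27me3 only regions. The medians were 4.98 RPKM against 4.37 in 6FAE, 6.57 against 6.30 in AE, 7.49 against 6.54 in Basal, 3.22 against 3.21 in C6FAE and 3.74 against 3.56 in CFAE, and 5.54 against 6.24 in C6AE. The mean difference was 0.05 ± 0.11 on the log2 scale (SD, n = 6 treatments), higher in 5 of 6, with an exact p of 0.28 (adjusted p = 0.28). Without 6FAE it was 0.027 (exact p = 0.56). With H3K27me3 regions of 1000 to 2000 bp alone it was 0.23 (exact p = 0.062). Both classes lay above the median of all H3K27me3 regions, which was 2.497 to 5.18 RPKM.

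Both marks were lower at the bivalent regions in the treatments with Forskolin than in those without it. For H3K27me3 the medians were 3.22 (C6FAE), 3.74 (CFAE) and 4.98 RPKM (6FAE) with Forskolin, and 5.54 (C6AE), 6.57 (AE) and 7.49 RPKM (Basal) without it, so the 2 groups did not overlap. The difference of the mean log2 values was -0.61. For H3K4me3 they were 8.63 to 14.3 RPKM with Forskolin and 14.4 to 27.5 RPKM without it, a difference of -0.71. The highest value with Forskolin (CFAE) almost touched the lowest without it (Basal). The choice of regions bears on this comparison: 1254 of the 1510 had an enriched H3K27me3 peak in some library, but only 27 in a library with Forskolin, so the comparison is not independent of how the regions were chosen. With 3 treatments against 3, the exact two-sided permutation test gave p = 0.1 for each mark (adjusted p = 0.1), the smallest it can give.

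The same difference was present over all regions of each table, at -0.56 for H3K27me3 and -0.64 for H3K4me3. With each column centred on its median, the bivalent regions kept -0.05 and -0.07 (exact p = 0.8 each). The difference at the bivalent regions was thus close to that of the mark as a whole, and whether the level of a whole library or the amount of the mark differed cannot be told apart with 1 library per treatment. Without 6FAE, the shallowest H3K27me3 library, the H3K27me3 difference was -0.75 (exact p = 0.1). Without C6AE, the shallowest H3K4me3 library, the H3K4me3 difference was -0.44 (exact p = 0.2, in place of 0.1).

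**Figure D5:**
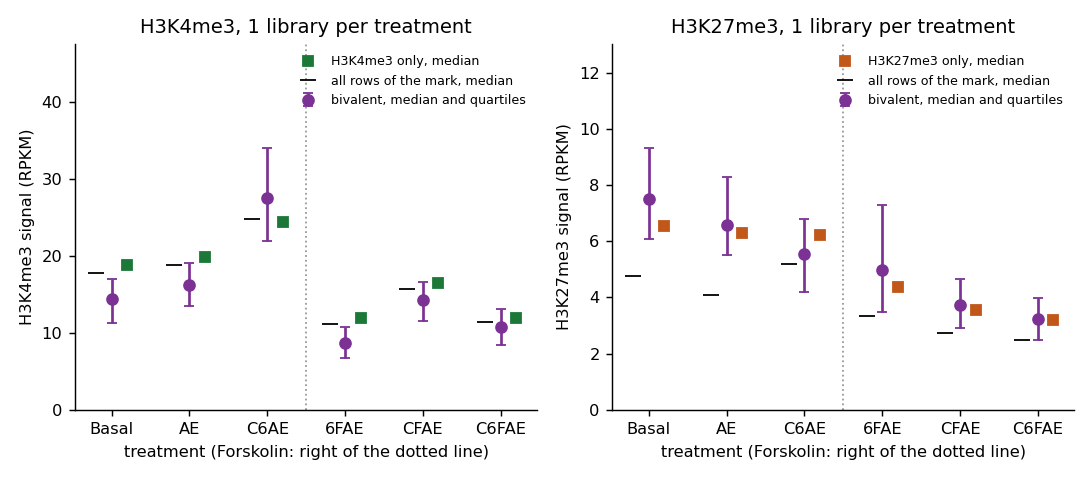
H3K4me3 (left) and H3K27me3 (right) RPKM of the bivalent regions in 6 treatments with 1 library each. Circles are medians and bars run from the lower to the upper quartile over regions. Squares are medians of the single-mark open regions, and dashes are medians of all regions of the mark. The 3 treatments with Forskolin lie lower for H3K27me3 (3.22 to 4.98 RPKM) than the others (5.54 to 7.49 RPKM).

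Region by region, H3K27me3 was lower with Forskolin in 1408 of the 1510 bivalent regions (93.2%), with a median difference of -0.63, and 158 (10.5%) were at least 2-fold lower, against 10.5% of all open regions with H3K27me3. The H3K27me3 only regions were lower in 92.5%, with a median of -0.70. Both classes were chosen through the H3K27me3 regions, so these counts are not independent of that choice, and regions are not replicates. H3K4me3 was lower in 1470 (97.4%), with a median of -0.71, and 231 (15.3%) were at least 2-fold lower, against 7.06% of all open regions with H3K4me3. The H3K4me3 only regions were lower in 99.6%, with a median of -0.62. C6FAE had the lowest H3K27me3 of the 6 treatments in 913 bivalent regions (60.5%), and Basal the highest in 795 (52.6%). C6AE had the highest H3K4me3 in 1337 regions (88.5%) and 6FAE the lowest in 1021 (67.6%). These ranks have no share over all regions of the mark beside them. Over all H3K27me3 regions the median was lowest in C6FAE (2.497 RPKM) too, but highest in C6AE (5.18 RPKM, with 4.75 in Basal). Over all H3K4me3 regions it was likewise highest in C6AE (24.8 RPKM) and lowest in 6FAE (11.1 RPKM). The C6AE library was the shallowest of H3K4me3, whereas the 6FAE library of that mark held 4058499 tags.

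An enriched H3K27me3 peak lay in 60.6% of the bivalent regions in AE, 52.0% in Basal and 62.5% in C6AE, and in 1.52% in C6FAE, 1.39% in CFAE and 0.993% in 6FAE. In the H3K27me3 only regions the shares were 49.7% in AE, 33.7% in Basal and 68.4% in C6AE, and 0.376% in C6FAE, 0.430% in CFAE and 0.161% in 6FAE, so the same libraries were low. The part of depth in this was not tested. The median fold enrichment of the best H3K27me3 peak in a bivalent region was 3.04 in AE, 3.08 in Basal and 3.13 in C6AE, and 2.22, 2.46 and 1.96 in C6FAE, CFAE and 6FAE. The 27 bivalent regions with an enriched H3K27me3 peak in any library with Forskolin were unlike the rest, with a median ATAC-seq level of 117 RPKM in Control and a median difference of -0.05 in C6FAE.

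The balance of the 2 marks at a region was taken as the difference of log2(RPKM + 1) between H3K4me3 and H3K27me3, on tables that were scaled separately. Its median was 0.65 in 6FAE, 0.85 in Basal, 1.15 in AE, 1.44 in C6FAE, 1.66 in CFAE and 2.12 in C6AE. H3K27me3 exceeded H3K4me3 in 370 regions in 6FAE (24.5%), 212 in Basal (14.04%) and 83 in AE (5.50%), and in 40 in C6FAE, 33 in CFAE and 10 in C6AE. The lowest and the highest balance fell on the libraries that were shallow for 1 mark.

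The largest positive differences of H3K27me3 by Forskolin rested on few libraries. The 3 largest, of 1.91 to 2.12 on the log2 scale, were at open regions that an H3K27me3 region of 530 to 534 bp touched. In chr7:133538278-133542133 H3K27me3 was 22.6 RPKM in 6FAE, 0.857 in C6FAE, 1.03 in CFAE, 0.0908 in C6AE and 0 in AE and Basal. Nearly all of the signal there was thus in the 6FAE library. The other two, chr5:23898018-23901669 and chr8:113577929-113587603, had 13.97 and 16.3 RPKM in 6FAE and at most 2.41 RPKM elsewhere. Without 6FAE the 3 differences were 0.92, 1.20 and 0.97.

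Of the 3 largest negative ones, the first was chr5:91946255-91948322, with H3K27me3 at 7.05 RPKM in AE, 9.10 in Basal and 3.68 in C6AE, and at 1.48 in C6FAE, 1.36 in CFAE and 0 in 6FAE (log2 difference -2.01). Without 6FAE the difference was -1.58. The ATAC-seq level of this region was 19.2 RPKM in Control and 29.7 RPKM in C6FAE. In another, chr11:89886046-89895102, H3K27me3 was 5.20 RPKM in AE, 7.50 in Basal and 0.857 in C6AE. It was 0.324, 0.637 and 0 RPKM in C6FAE, CFAE and 6FAE (log2 difference -1.83, and -1.65 without 6FAE). H3K4me3 ran the other way there, at 2.26 RPKM in AE, 3.46 in Basal and 14.1 in C6AE, and 14.6, 17.8 and 8.42 RPKM in C6FAE, CFAE and 6FAE. ATAC-seq was at 8.89 RPKM in Control, 11.5 in AE, 9.50 in Basal and 8.51 in C6AE, and at 14.2 in 6FAE, 18.2 in CFAE and 23.4 RPKM in C6FAE. In these merged columns the 3 Forskolin treatments lay above the others, but the single libraries were not so ordered. The peak density was 0.202 in 6FAE replicate 1, under both AE libraries (0.253 and 0.309).

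The 5 bivalent regions with the most of both marks were led by places of very high signal in every assay. At chr2:98502300-98508122, ATAC-seq was 3031 to 3726 RPKM in all 7 treatments, H3K4me3 498 to 770 RPKM and H3K27me3 215 to 607 RPKM. ATAC-seq was 341 to 428 RPKM at chr9:35109598-35115307, 1364 to 1662 RPKM at chr6:103599004-103600323 and 1756 to 2928 RPKM at chr17:39979911-39985894. In contrast, chr8:74202553-74206697 had an ordinary ATAC-seq level of 12.1 to 20.4 RPKM under H3K4me3 of 157 (6FAE) to 1074 RPKM (C6AE) and H3K27me3 of 81.4 (CFAE) to 246 RPKM (C6AE). It lay in an H3K27me3 region of 51623 bp. The tables carry no input column, so these levels were not set against input. In all, 14 bivalent regions were in the top 1% of all 3 tables, with mean ATAC-seq levels of 63.1 to 3422 RPKM against a median of 16.7 RPKM in the other bivalent regions. Without them the median difference in C6FAE was 0.74 and 457 regions were still at least 2-fold higher.

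Across the 1510 bivalent regions the 3 readouts were only loosely related, given here as a description, since the regions share libraries, depth and base composition. Spearman's rho was 0.30 between mean ATAC-seq and mean H3K4me3, -0.05 between mean ATAC-seq and mean H3K27me3 and -0.12 between the 2 marks. Mean H3K27me3 went with the length of the H3K27me3 region (rho 0.56). The ATAC-seq difference between C6FAE and Control had a rho of 0.06 with the H3K27me3 difference by Forskolin and 0.04 with the H3K4me3 difference by Forskolin. Its rho was largest in size with mean ATAC-seq, at -0.28. It was -0.11 with mean H3K4me3, 0.05 with mean H3K27me3 and 0.13 with the length of the H3K27me3 region.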

How the data were processed

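ATAC-seq peaks and H3K4me3 and H3K27me3 peaks were called by the authors with MACS 2.1.2 in each library, at a p-value threshold of 0.05 with tags extended to 250 bp and no local background. The submitters' processing notes also name Bowtie2, deepTools 3.1.0 and mm9. Each deposited peak has a pileup (a coverage signal), a fold enrichment (a ratio) and p and q values as -log10. Their headers say that q was not calculated, so the q column was used as listed. The authors' 3 merged tables hold RPKM averaged over bins, with ATAC-seq libraries of a treatment merged and ChIP-seq not set against input.

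Positions were compared by overlap. A peak reached base 197189572 of chromosome 1, whereas the last gene of GRCm38 ends at 195291439, so the GRCm38 tables of genes and promoters were not joined, no sequence is shown, and the gene and marker lists that depended on an annotation were not used. RPKM was taken as log2(RPKM + 1). A region's mark level is the mean over the overlapping regions of the mark. The 1510 regions, the lists, the tests and the alternatives were chosen with earlier results of these data known. Named regions are the 5 with the highest smaller mark, the 5 largest ATAC-seq increases and decreases from Control to C6FAE with a listed peak in both libraries of the higher treatment, the 3 largest H3K27me3 rises and falls by Forskolin, and the 5 H3K27me3 regions with most bivalent open regions, 1 per H3K27me3 region in the first 3 sets. Of the falls, 2 are given in full.

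Limma 3.58.1 (R 4.3.3) was fitted to log2(peak density + 0.5) with 7 groups of 2 libraries, over regions with a listed peak in at least 2 libraries, with an adjusted p threshold of 0.05. It and the permutation tests were tested on simulated data. Alternatives changed the pseudocount, scaling, filter, overlap, peak threshold, length, unit and libraries. PCR reads that carry no molecular identifier may be copies of 1 molecule. Overlaps and permutation tests used numpy 2.4.6, scipy 1.17.1 and pandas 2.3.3 in Python 3.11.15, and matplotlib 3.10.9 drew the plots.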

Additional observations from a re-analysis of the deposited data

Results flagged for a closer look

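An H3K4me3 and an H3K27me3 library whose title (control) and treatment label (C6FAE) disagree entered no comparison. They are given here because both showed signal at the bivalent regions. The H3K4me3 library, with 3281444 tags, had a median of 20.7 RPKM over the 1510 bivalent regions, and 24.2 RPKM at the H3K4me3 only regions. The H3K27me3 library, with 2309438 tags, had a median of 6.64 RPKM, and 6.45 RPKM at the H3K27me3 only regions. The assigned C6FAE libraries stood at 10.8 and 3.22 RPKM. An enriched peak lay in 99.0% of the bivalent regions for H3K4me3 and in 15.7% for H3K27me3.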

How the results depend on the processing

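The ATAC-seq differences rest on merged columns without replicates, and each mark on 1 library per treatment. A value without a test is said to move when it leaves its 95% order-statistic interval over regions, and a count when it changes over 1.5 times. Causes of the changes were not tested, unless stated. Asking for at least 50% of the open region to be covered by each mark left 834 bivalent regions, with median differences to Control of 0.47 (6FAE), 0.49 (AE), 0.25 (Basal), 0.30 (C6AE), 0.87 (C6FAE) and 0.85 (CFAE). With a pseudocount of 10, which shrinks all differences, they were 0.23, 0.28, 0.13, 0.11, 0.48 and 0.45 in the same order, with 89 regions at least 2-fold higher in C6FAE and 0 lower. The bivalent share was then 5.89% against 7.14% of all open regions in C6FAE, and 4.44 against 6.89% in CFAE, under that of all open regions as after centring. With 0.1 they moved in C6FAE (0.77) and CFAE (0.75). Centred on the column medians they were 0.085, -0.026, -0.090, 0.12, 0.16 and 0.072, so AE and Basal changed sign. In C6FAE 114 regions were then higher and 18 lower, against 3712 and 4030 of all open regions. After quantile normalization the median differences were 0.15, 0.014, -0.047, 0.13, 0.21 and 0.12, so Basal changed sign. In C6FAE 94 were then higher and 6 lower, against 3386 and 3348 of all open regions. With regions in the lower quartile of mean RPKM removed, 0 bivalent regions were lower in C6FAE, against 707 of all open regions kept. At 1.5-fold 944 were higher (62.5%, against 44.8% of all open regions) and 7 lower (against 3146 of all 35931). Bivalent regions of 2000 to 4000 bp with a Basal RPKM of 10 to 20 were a choice made after seeing the data. There 6FAE was at 0.33 and C6AE at 0.15. In C6FAE 120 of them were higher (29.3%, against 17.3% of all open regions of that kind) and 0 lower (against 0.79%). The gap between regions wholly and less than 50% inside H3K27me3 was 0.16 with a pseudocount of 10.

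The difference of peak shares to the unmarked regions was 1.35 points among regions of 1000 to 2000 bp (exact adjusted p = 0.43), and no other alternative ended a call on the peak shares. With every listed peak the difference to H3K4me3 only was -2.85 points, in place of -24.1. Leaving out each library in turn gave -24.6 to -23.7 points against H3K4me3 only, 24.5 to 26.5 against H3K27me3 only and 18.2 to 19.96 against unmarked regions. Limma called 1 bivalent region in C6FAE against Control with the highest fold enrichment. Leaving out each library gave 0 to 1 calls in C6FAE against C6AE, and 0 in the other 5 comparisons. The 1 call came without C6AE replicate 1, which leaves 1 library that is assumed to vary like the others. It was chr1:84691883-84693091, with peak densities of 1.04 and 0.825 in C6FAE, 0.486 in that replicate and 0 in the other. The replicate block, without Basal, gave 0 bivalent calls in each of the 5 comparisons. In peak density, same-numbered libraries did not deviate together (correlations of -0.15 to 0.04 over 15 pairs of treatments, Basal left out). Whether they shared a culture or a batch was not tested.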
